A study of Homo sapiens with 14 samples.

Results

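The laminin chain genes LAMA1, LAMA2, LAMA3, LAMA4, LAMA5, LAMB1, LAMB2, LAMB3 and LAMC1 were followed in RNA sequencing of human pancreatic differentiation and progenitor expansion. They are 9 of the 60624 gene identifiers listed for each library and were taken by symbol through their Ensembl identifiers. Values of LAMB4 and LAMC3 are given beside them. The list, and the attention to LAMB3 with DMSO against I-BET151, were chosen by the measured TPM of that comparison. Levels and differences of the 9 genes in it are therefore a description with no test.

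All 14 libraries came from cells of MEL1 INS GFP/W, a line of human embryonic stem cells with GFP placed at the insulin gene INS (the labels write MEL1), and fall into 9 groups by their titles and into 3 batches by their descriptions. Batch 1 held 1 library each of hPSC (undifferentiated cells), DE (definitive endoderm), PP2 (PDX1 and NKX6.1 positive pancreatic progenitors) and SC-β (β-like cells made without an expansion step). Batch 2 held 2 libraries each of ePP-P9 and ePP-P21 (expanded pancreatic progenitors, ePPs, at passages 9 and 21) and of ePP-β (β-like cells differentiated out of ePPs). Batch 3 held 2 libraries each of DMSO and I-BET151, which were pancreatic progenitors passaged in culture and then given either solvent or I-BET151 at 1 μM for 7 days. I-BET151 blocks the BET bromodomain proteins, which bind acetylated histones. The DMSO and I-BET151 cells shared a medium with EGF, bFGF and the TGFβ receptor inhibitor 616452. The ePPs were kept in the same medium with 1 μM I-BET151. Both the ePP and the I-BET151 libraries thus come from cells exposed to the inhibitor. The media given for the other groups do not name it, but the ePP-β cells were made from such ePPs. Undifferentiated cells were grown on CF1 feeder cells, which are mouse cells, and ePPs on feeder cells. Whether reads from feeder cells were removed was not given in the sources used here, and their part in the laminin levels of hPSC and ePP libraries was not tested.

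Laminins are crosslinked trimers of 1 α, 1 β and 1 γ chain that form the sheet of a basement membrane on which epithelial cells rest. The name of a trimer gives its chains, so that laminin-111 holds the products of LAMA1, LAMB1 and LAMC1 and laminin-511 those of LAMA5, LAMB1 and LAMC1. Laminin-332 holds the products of LAMA3 and LAMB3. Laminin-111 belongs to early embryonic basement membranes, laminin-511 and laminin-521 are laid down by pluripotent cells and by many epithelia, and laminin-332 anchors epithelia such as the epidermis through hemidesmosomes. The β3 chain, encoded by LAMB3, is used in laminin-332, where α3 is its α chain.

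TPM values are scaled by transcript length and by the size of the library, so levels of different chains can be set side by side. A library's TPM added up to 908685 at the lowest and 985497 at the highest, and the read depth is unknown, so no counting interval can be given. Ribosomal protein genes took between 9.78% and 27.9% of the TPM. All 37 mitochondrial genes were listed at 0 in all 14 libraries, so a 0 is reported only as listed at 0. In bulk RNA, fewer cells of a type and less RNA per cell cannot be told apart. The stages hPSC, DE, PP2 and SC-β had 1 library each and differ from the other groups by batch as well as by cell, which cannot be told apart.

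Among the α chains, LAMA1 and LAMA5 supplied most of the RNA in all 9 groups. LAMA1 (chromosome 18, 6941742 to 7117797, minus strand, GRCh38), the α chain of laminin-111, was at 9.25 TPM in hPSC, 30.2 in DE and 71.9 in PP2. It was at 131 and 138 TPM in ePP-P9, at 196 and 201 in ePP-P21, at 27.5 and 26.2 in ePP-β and at 9.93 in SC-β. The ePP libraries were the highest along this path, and both kinds of β-like cells lay below PP2. LAMA5 (chromosome 20, 62307955 to 62367312, minus strand), the α chain of laminin-511 and laminin-521, was at 57.3 TPM in hPSC, 32.3 in DE, 88.9 in PP2 and 50.7 in SC-β. The ePP-P9 libraries of batch 2 had 22.4 and 20.8 TPM of it, with 36.9 and 39.1 in ePP-P21, and 17.4 and 23.2 in ePP-β. The share of LAMA1 in the summed α chain RNA was 13.4% in hPSC, 47.2% in DE, 44.5% in PP2, 84.8% in ePP-P9, 83.1% in ePP-P21, 53.3% in ePP-β and 13.9% in SC-β. The α chain that led was thus LAMA5 in hPSC, DE, PP2 and SC-β and LAMA1 in the ePP and ePP-β groups.

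The other α chains were low. LAMA4 (chromosome 6, 112107931 to 112254939, minus strand), a chain typical of vessel walls and mesenchyme, lay between 1.03 and 2.64 TPM in the 6 libraries of batch 2, was at 7.64 in SC-β and had its highest values in DMSO. LAMA3 (chromosome 18, 23689453 to 23956222, plus strand), the α chain of laminin-332, lay below 1 TPM outside DMSO except in ePP-β replicate 2, at 2.79 TPM against 0.660 in replicate 1. LAMA2 (chromosome 6, 128883138 to 129516566, plus strand), the α chain of muscle and nerve basement membranes, was at 2.18 TPM in hPSC, 1.39 in DE and 3.11 in SC-β. It was at or under 0.148 TPM in the other libraries, and listed at 0 in DMSO replicate 2. The SC-β library was also high in markers of mesenchyme, with COL3A1 at 1210 TPM, DCN at 98.4 and LUM at 93.4, and PP2 had COL3A1 at 779 TPM, DCN at 17.9 and LUM at 171. The 12 mesenchymal markers summed to 3050 TPM in SC-β and 1952 in PP2, against 514 and 554 in ePP-β, and PP2 also had the highest sum of 6 endothelial markers, at 74.3 TPM. The part of such cells in the levels of LAMA2 and LAMA4 in SC-β was not tested.

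Among the β chains, LAMB1 exceeded LAMB2 in 14 of 14 libraries, by 1.42 to 4.35 times. LAMB1 (chromosome 7, 107923799 to 108003213, minus strand), the common β chain of embryonic laminins, was at 54.9 TPM in hPSC, 44.8 in DE, 156 in PP2 and 103 in SC-β, and reached 213 and 239 in ePP-P9 and 340.4 and 319 in ePP-P21. LAMB2 (chromosome 3, 49121114 to 49133118, minus strand), the β chain of laminin-121 and laminin-521, was at 33.5 TPM in hPSC, 24.2 in DE, 99.0 in PP2 and 67.0 in SC-β. LAMB3 (chromosome 1, 209614870 to 209652425, minus strand), the β chain of laminin-332, was at 3.84 TPM in hPSC, 0.0723 in DE, 6.87 in PP2 and 5.27 in SC-β. In ePP-P9 it was at 0.0657 TPM and listed at 0, in ePP-P21 at 0.0189 and 0.0571, and in ePP-β at 4.50 and 5.46. LAMB3 was thus near 0 in DE and in all 4 ePP libraries, and the ePP-β libraries lay between hPSC and PP2. LAMB4 did not pass 0.367 TPM in any library.

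LAMC1 (chromosome 1, 183023420 to 183145592, plus strand), the γ chain of most laminins, was at 59.2 TPM in hPSC, 16.7 in DE, 90.3 in PP2 and 42.0 in SC-β, and at 209 and 206 in ePP-P9 and 240 and 251 in ePP-P21. The 4 ePP libraries were thus the highest along this path for LAMC1, as for LAMA1 and LAMB1. LAMC3 was at 6.98 TPM in hPSC, 4.65 in DE, 3.69 in PP2 and 6.89 in SC-β, and at or under 0.105 TPM in batches 2 and 3.

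**Figure D1:**
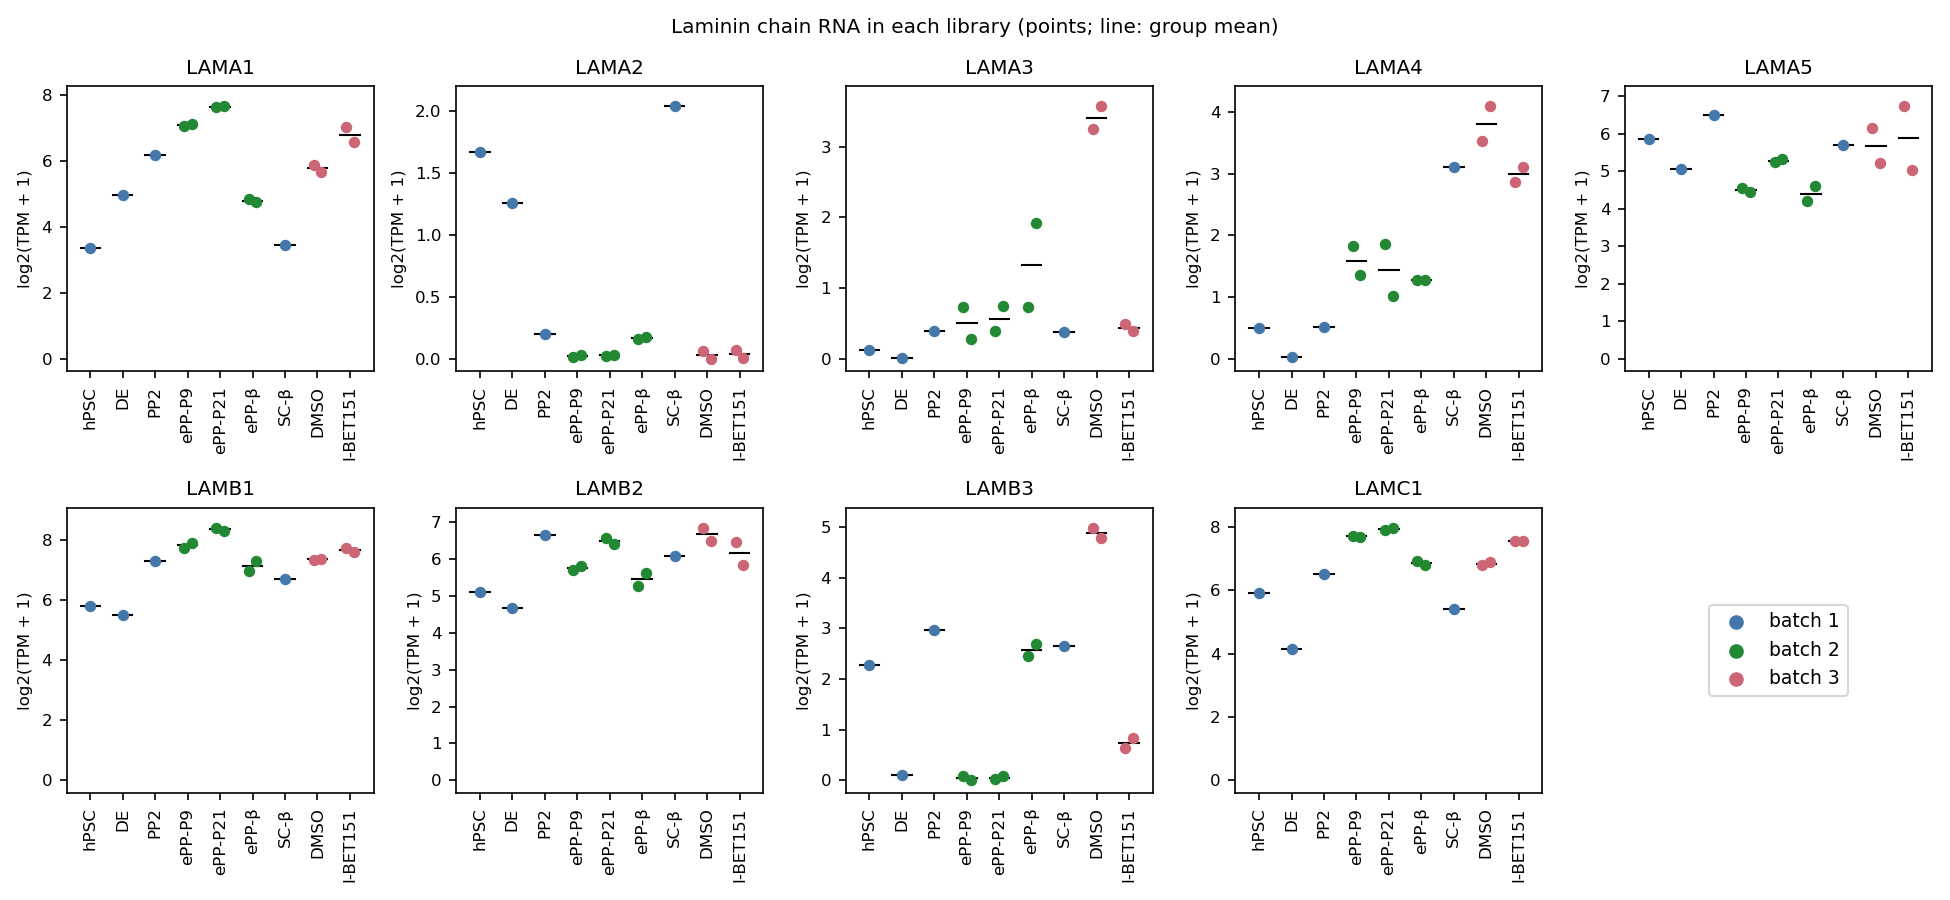
TPM of the 9 laminin chain genes in each library, as log2(TPM + 1) on a vertical axis scaled per gene. Points are libraries, coloured by batch, and lines are group means. LAMB3 lies between 26.5 and 30.8 TPM in DMSO and under 1 TPM in I-BET151 and the ePP libraries.

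Counts of reads over genes that share sequence can be split between them. LAMB1 overlaps DLD and LAMA5 overlaps ADRM1 on opposite strands, and the use of strand was not stated, so part of these values could come from the partner. The antisense gene LAMC1-AS1 reached 2.17 TPM, and the pseudogene LAMB2P1 reached 0.585 TPM.

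**Figure D2:**
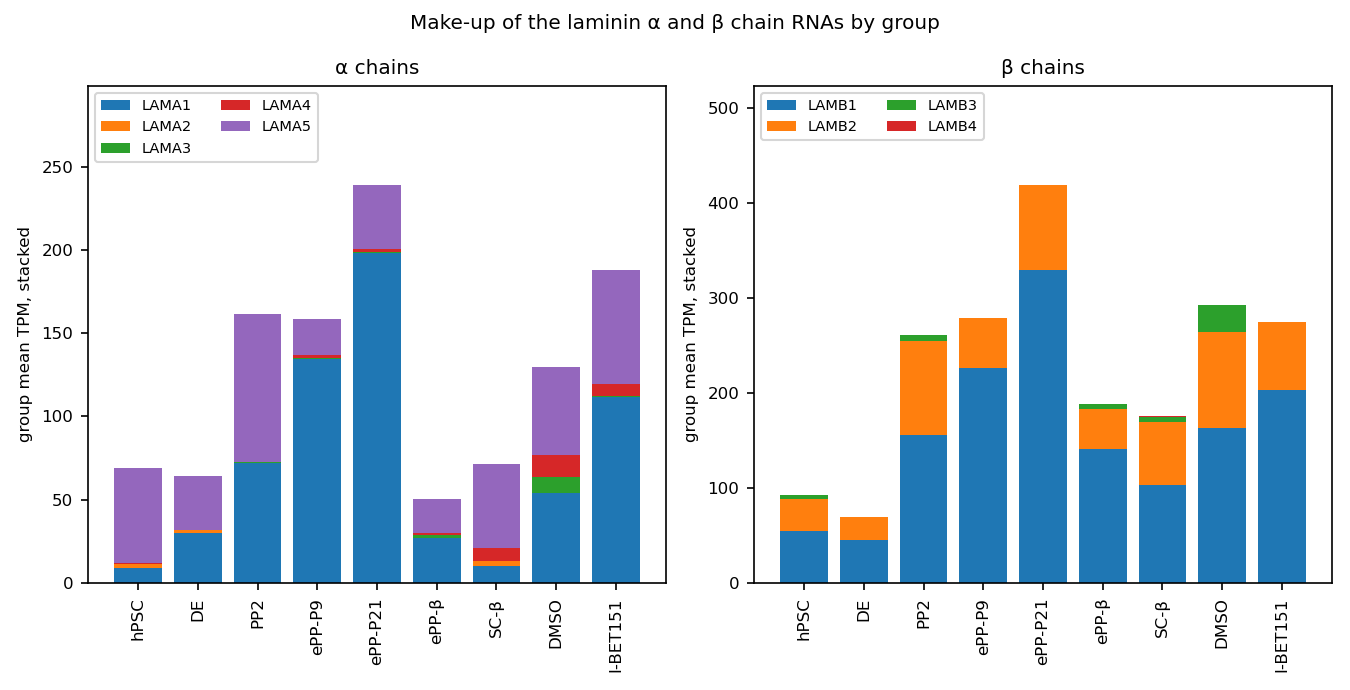
Stacked bars of group mean TPM of the α and β chain genes in the 9 groups, from 0. LAMA1 takes 84.8% of the α chain RNA in ePP-P9 and 13.4% in hPSC, and LAMB3 is visible mainly in DMSO.

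A trimer needs 3 chains, so the lowest of its 3 RNAs gives a ceiling on what the RNA could supply if the chains were made in proportion to it. This is a description of RNA levels, since the proteins were not measured in these files. In hPSC the highest ceiling was that of laminin-511, at 54.9 TPM and set by LAMB1, with laminin-111 at 9.25. In DE, laminin-111, laminin-121, laminin-511 and laminin-521 shared a ceiling of 16.7 TPM set by LAMC1. In PP2, laminin-511 and laminin-521 came first at 88.9 TPM, set by LAMA5, before laminin-111 and laminin-121 at 71.9.

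In the ePPs laminin-111 had the highest ceiling, at 135 ± 5.02 TPM in ePP-P9 and 198 ± 3.64 in ePP-P21 (SD, n = 2), set by LAMA1, while laminin-511 was at 21.6 and 38.0. In ePP-β, laminin-111 and laminin-121 were at 26.9 ± 0.967 TPM and laminin-511 at 20.3 ± 4.07, so the ceilings lay close together. In SC-β, laminin-511 and laminin-521 were at 42.0 TPM, set by LAMC1, and laminin-111 was at 9.93. Laminin-311 and laminin-321, which hold the α3 chain, had ceilings of 9.69 ± 1.68 TPM in DMSO, 0.359 ± 0.0590 in I-BET151 and 1.73 ± 1.51 in ePP-β, set by LAMA3 in each, and LAMB3 enters none of these trimers.

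**Figure D3:**
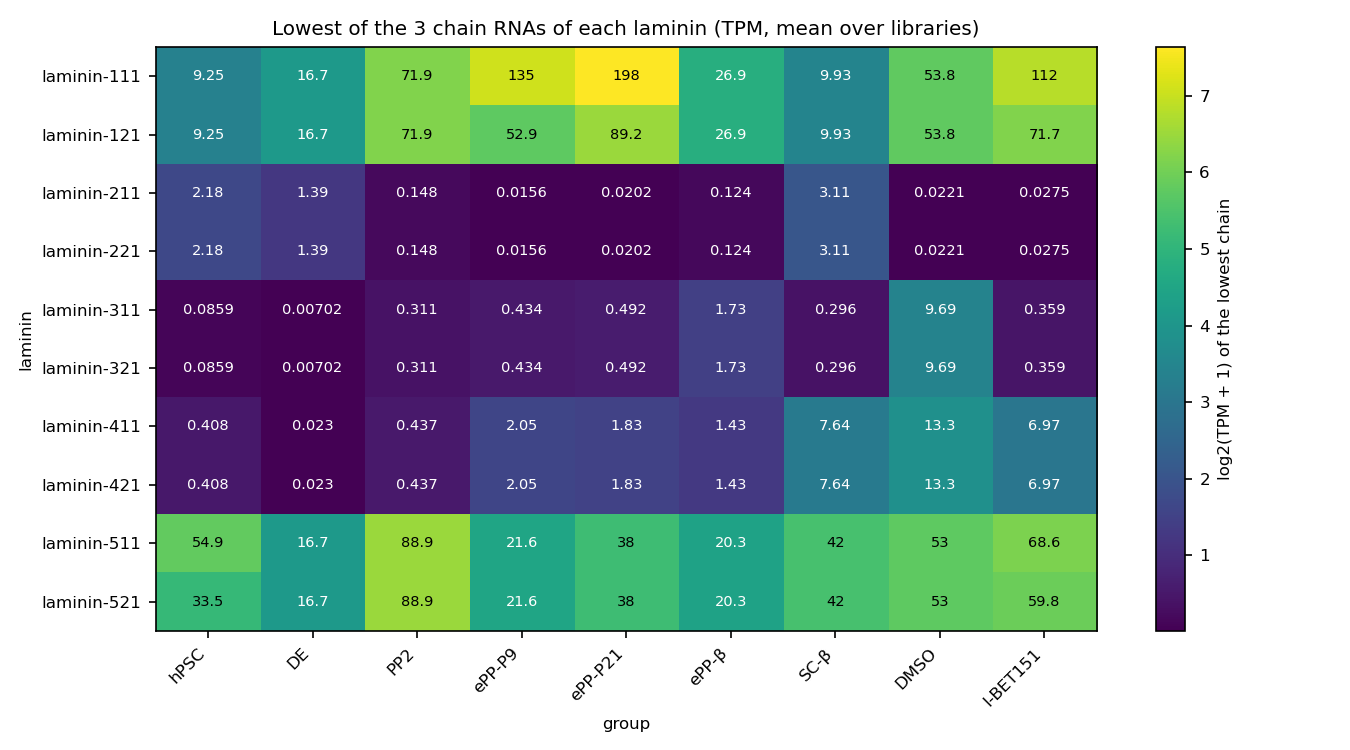
Ceilings of 10 laminins by group, as the TPM of the lowest of the 3 chain RNAs in each library, averaged over the libraries of the group. Numbers are TPM and colour is log2(TPM + 1). Laminin-111 leads in the ePP groups and laminin-511 in hPSC.

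The DMSO and I-BET151 libraries address which genes change when cultured pancreatic progenitors are exposed to a BET inhibitor. LAMB3 was 42.6-fold lower with I-BET151 and LAMA3 27.0-fold lower, so the RNAs of the β and the α chain of laminin-332 were both lower. The chain RNAs of laminin-111 were higher, by 2.08-fold for LAMA1, 1.65-fold for LAMC1 and 1.24-fold for LAMB1. All these folds are ratios of mean TPM.

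LAMB3 stood at 30.8 and 26.5 TPM with DMSO, and at 0.559 and 0.787 with I-BET151, that is 28.6 ± 3.05 against 0.673 ± 0.161 (SD, n = 2). The log2 difference of TPM + 1 was -4.15, and -4.35 and -3.94 between the libraries numbered 1 and 2. LAMA3 stood at 8.50 and 10.9 TPM with DMSO and 0.401 and 0.317 in I-BET151, a log2 difference of -2.97. In both genes the I-BET151 libraries lay below the DMSO libraries by a wide margin.

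The DMSO libraries had LAMA1 at 57.7 and 50.0 TPM and the I-BET151 libraries at 130.1 and 93.7. LAMC1 went from 109.7 and 117 TPM to 189 and 185. LAMB1 went from 162 and 165 TPM to 212 and 194. In these 3 genes both I-BET151 libraries lay above both DMSO libraries, with log2 differences of 1.03, 0.72 and 0.31.

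LAMA4, at 10.5 and 16.0 TPM in DMSO, was at 6.30 and 7.63 in I-BET151. LAMB2, at 114 and 88.1 TPM in DMSO, was at 87.7 and 55.8 in I-BET151, where the nearest libraries differed by little. LAMA5 overlapped between the groups, at 69.9 and 36.2 TPM in DMSO and 105 and 31.9 in I-BET151, and was lower in the replicate 2 library of each group. In the replicate 2 libraries ribosomal protein genes took 27.9% and 27.8% of the TPM, against 20.3% and 16.8% in the replicate 1 libraries, and their part in the values of LAMA5 was not tested. LAMA2 was under 0.05 TPM in the 4 libraries.

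Of the 8 members with at least 1 TPM in 2 of the 4 libraries, 3 were higher and 4 lower without overlap, against 28.7% and 18.0% of the 16687 genes tested. LAMB3 and LAMA3 passed this filter only through DMSO. Calls required both a log2 fold change beyond 1 and an adjusted p (Benjamini-Hochberg) below 0.05, and limma called 0.204% of all genes lower and 0.00599% higher. With pseudocounts of 0.1 or 0.01, or with no filter, limma called 0 genes, with 2462, 2417 and 4535 at an unadjusted p under 0.05. Since the members were chosen with this comparison in view, nothing is read from these counts and no call is given for a member. LAMB3 had the 35th most negative log2 difference of the 16687 genes.

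**Figure D4:**
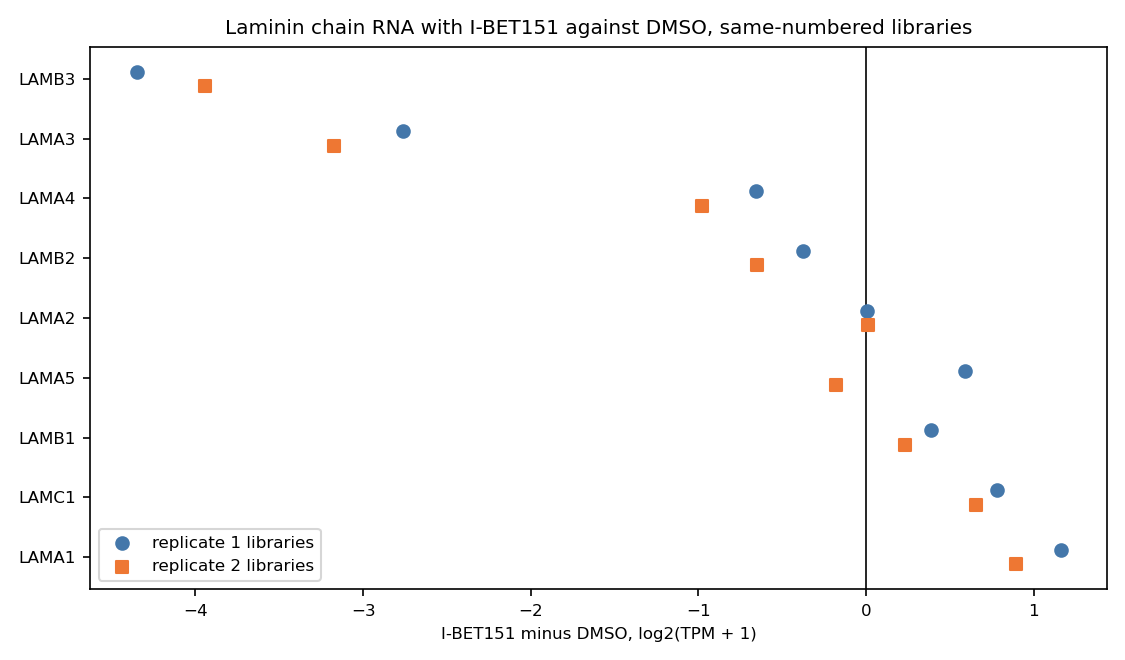
Difference of log2(TPM + 1) between I-BET151 and DMSO for the 9 laminin chain genes, between libraries numbered 1 (circles) and 2 (squares). LAMB3 and LAMA3 lie below -2, LAMA1, LAMB1 and LAMC1 lie above 0, and LAMA5 lies on both sides of 0.

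Markers of other cells and states moved in the same libraries. EPCAM, an epithelial adhesion molecule, was at 710 and 838 TPM in DMSO and 238 and 356 in I-BET151, CDH1 (E-cadherin) at 121 and 118 against 25.9 and 37.0, and CLDN4, a tight junction claudin, at 266 and 66.6 against 7.76 and 9.92. The keratins KRT8, at 1533 and 797 TPM against 1329 and 889, and KRT18, at 1354 and 2078 against 1826 and 1858, overlapped between the groups, as did KRT19, at 1154 and 567 against 777 and 265. None of the 6 epithelial markers was called by limma. Of the 6, 3 had an unadjusted p under 0.05, against 2536 of the 16687 genes tested. The median log2 fold change of the 6 was -1.12, against 0.16 over all genes. The 6 summed to 4465 and 5138 TPM in DMSO and 3415 and 4203 in I-BET151. LUM, a stromal proteoglycan, was at 16.2 and 14.2 TPM in DMSO and 0.477 and 0.670 in I-BET151, and it passed the filter only through DMSO, so no test is given for it. Of the 12 mesenchymal markers 9 passed the filter, and of those other than LUM none was called. The mesenchymal sum was 760 and 858 TPM in the DMSO libraries and 884 and 1278 in the I-BET151 libraries. VIM made up most of it, at 600 and 626 TPM with DMSO and 788 and 1215 with I-BET151. COL3A1, at 110 and 46.2 against 43.8 and 21.7, and POSTN, at 58.7 and 44.3 against 12.7 and 19.2, were lower with I-BET151. PDGFRA and PDGFRB had log2 differences of 0.40 and 0.17. The median log2 fold change of the 9 tested, LUM included, was -0.65, against 0.16 over all genes. The 6 endothelial markers summed to 2.95 and 4.72 TPM with DMSO and 0.998 and 2.30 with I-BET151. The median log2 fold change was 1.01 for the 4 pancreatic progenitor markers tested, none of them called. For the 2 endocrine markers tested, SST and CHGA, it was -1.61, and SST passed the filter only through DMSO. The part of shifts in cell makeup in the laminin differences was not tested.

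The 250 bases before the start sites are shown from the tables of RefSeq for LAMB3, LAMA3 and LAMC1, because LAMB3 and LAMA3 moved opposite to LAMC1. RefSeq gives LAMB3 3 start sites, of which the outer and the inner are printed. Sequences are from GRCh38.p14, 5′ to 3′ on the gene's strand, and capitals mark matches on either strand to the AP-1 site TGANTCA, the GC box GGGCGG and the CCAAT box CCAAT. The E-box CACGTG and the TATA box TATAAA were also searched and had no match in these windows. LAMB3 outer start, chr1:209652426-209652675, minus strand, lies just before the annotated first exon. LAMB3 inner start, chr1:209651375-209651624, minus strand, lies within the gene, 1051 bases after its first base, in an intron but for 20 bases annotated as an untranslated exon. LAMA3, chr18:23872770-23873019, plus strand, lies within an intron of the long LAMA3 transcripts, 183567 bases after the first base of the gene. LAMC1, chr1:183023170-183023419, plus strand, lies just before the gene.
LAMB3 outer start: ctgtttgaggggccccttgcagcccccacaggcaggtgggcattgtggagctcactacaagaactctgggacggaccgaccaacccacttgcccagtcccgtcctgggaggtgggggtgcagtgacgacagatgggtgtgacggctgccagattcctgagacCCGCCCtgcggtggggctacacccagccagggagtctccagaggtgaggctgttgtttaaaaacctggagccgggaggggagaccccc
LAMB3 inner start: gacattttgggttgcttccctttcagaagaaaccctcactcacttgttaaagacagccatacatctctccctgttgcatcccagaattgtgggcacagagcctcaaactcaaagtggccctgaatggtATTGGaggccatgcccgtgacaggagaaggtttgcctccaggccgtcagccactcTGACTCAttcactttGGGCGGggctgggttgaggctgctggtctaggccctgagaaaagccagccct
LAMA3: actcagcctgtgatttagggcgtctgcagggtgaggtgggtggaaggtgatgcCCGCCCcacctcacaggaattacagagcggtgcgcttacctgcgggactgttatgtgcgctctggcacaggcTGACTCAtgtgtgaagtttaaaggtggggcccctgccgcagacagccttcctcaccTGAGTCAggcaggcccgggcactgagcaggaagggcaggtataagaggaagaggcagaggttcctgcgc
LAMC1: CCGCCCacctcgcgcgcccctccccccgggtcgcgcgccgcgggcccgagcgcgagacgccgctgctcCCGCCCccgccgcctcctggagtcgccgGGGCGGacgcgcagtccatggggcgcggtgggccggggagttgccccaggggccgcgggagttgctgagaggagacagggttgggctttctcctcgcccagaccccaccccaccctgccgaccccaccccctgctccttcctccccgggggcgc
The inner LAMB3 window held 1 AP-1 match, 1 GC box and 1 CCAAT box, and the outer 1 GC box. The LAMA3 window held 2 AP-1 matches and 1 GC box, and the LAMC1 window held 3 GC boxes and no AP-1 match. The windows of LAMA4 and LAMB2, also lower with I-BET151, and the middle LAMB3 window held no AP-1 match either. They are not printed. Of 35116 windows of this length in the table, 6.57% held the AP-1 site, 42.6% the GC box, 32.0% the CCAAT box, 6.34% the E-box and 10.7% the TATA box. These are matches of letters only. LAMA1 has no window printed.

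The comparison of ePP-β with ePP asks which genes change when expanded progenitors are turned into β-like cells. The 9 genes were chosen by the values of DMSO and I-BET151. Earlier results of these data were known, so a choice free of this comparison is not certain. LAMA1 fell and passed the call. LAMB1, LAMC1, LAMB2 and LAMA5 fell by less. All 3 chain RNAs of laminin-111 thus fell. LAMB3, the β chain of laminin-332, was near 0 in ePP and higher in ePP-β, while LAMA3, its α chain, was under 1 TPM in 5 of the 6 libraries.

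LAMA1 was 6.20-fold lower in ePP-β, with a mean of 26.9 ± 0.967 TPM (SD, n = 2) against 135 ± 5.02 in ePP-P9 and 198 ± 3.64 in ePP-P21, a log2 fold change of -2.56 ± 0.07 (SE, limma, adjusted p = 5.33e-06). LAMB3, at 4.98 ± 0.684 TPM in ePP-β and at or under 0.0657 in the 4 ePP libraries, differed by 2.53 on the log2 scale. LAMB3 reached 1 TPM only in ePP-β and passed the filter only through that group, so it had to differ and no test is given for it. Neither gene overlapped between the ePP-β and ePP libraries.

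LAMB1, at 126 and 156 TPM in ePP-β against 213 to 340.4 in ePP, fell by 0.96 ± 0.11 (SE, limma, adjusted p = 0.000596). LAMC1, at 121 and 111 TPM in ePP-β against 206 to 251 in ePP, fell by 0.96 ± 0.07 (SE, limma, adjusted p = 9.38e-05). LAMB2, at 37.6 and 48.2 TPM in ePP-β against 50.7 to 94.1 in ePP, fell by 0.68 ± 0.12 (SE, limma, adjusted p = 0.00407). LAMA5 fell by 0.49 ± 0.13 (SE, limma, adjusted p = 0.0208), and its ePP-β replicate 2, at 23.2 TPM, lay above both ePP-P9 libraries. The fall of LAMA5 missed the threshold without ePP-β replicate 1 (adjusted p = 0.105), without ePP-P9 replicate 1 (0.0574) and without ePP-P21 replicate 2 (0.0551), and over all alternatives its adjusted p ran from 0.00467 to 0.430. LAMA4 had a log2 fold change of -0.24 ± 0.28 (SE, limma, adjusted p = 0.502).

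Of the 6 members tested other than LAMB3, 0 were called higher and 1 lower, against 17.9% and 9.86% of the 18076 genes tested, and nothing is read from 1 call. With the adjusted p alone 0 were higher and 5 lower, against 29.2% and 28.2% of all genes. The median log2 fold change of the members, LAMB3 included, was -0.68, against -0.03 over all genes. Of all called genes 3237 were higher and 1783 lower, and with quantile normalization 2592 were higher and 2866 lower. With median centring, or TPM rescaled without ribosomal protein genes, LAMB1 and LAMC1 also passed the fold threshold. The ePP-β libraries held cells of another kind. The endocrine markers INS, GCG, SST and CHGA summed to 41432 and 46044 TPM, against 3.45 to 5.61 in ePP. GCG (glucagon) was at 14107 and 13360 TPM in ePP-β, beside INS at 10916 and 17374. In SC-β, GCG was at 74281 TPM and INS at 20657. The name β-like is the study's, and these RNAs are not of the insulin gene alone. The mesenchymal markers summed to 514 and 554 TPM in ePP-β and 1412 to 1790 in ePP. VIM made up most of these sums, at 454 and 507 TPM in ePP-β and 1351 to 1725 in ePP. COL3A1 overlapped, at 29.7 and 22.8 against 24.7 to 36.0. TWIST1 was higher in ePP-β, at 3.99 and 3.55 against 0.236 to 0.975, and POSTN lower, at 3.36 and 3.46 against 13.3 to 23.1. The endothelial markers summed to 6.02 and 17.1 TPM against 0.726 to 1.80, and in ePP-β most of this was CLDN5, at 5.82 and 17.0. The part of mesenchymal or endothelial cells in the laminin changes was not tested. LAMA2 and LAMA3 were below the filter.

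Between passages 9 and 21 the laminin chains of ePPs moved by less than 1 on the log2 scale. LAMA1 rose by 0.56 ± 0.07 (SE, limma, adjusted p = 0.0399), LAMB2 by 0.74 ± 0.10 (limma, adjusted p = 0.0399) and LAMA5 by 0.79 ± 0.11 (limma, adjusted p = 0.0416). In each of these genes both ePP-P21 libraries lay above both ePP-P9 libraries. LAMB1, with a log2 fold change of 0.54 ± 0.09 (limma, adjusted p = 0.0511), LAMC1, with 0.24 ± 0.07 (0.134), and LAMA4, with -0.15 ± 0.36 (0.846), missed the threshold. Of the 6 members tested none was called. An unadjusted p under 0.05 was found for 5, against 3641 of the 15822 genes tested. With the adjusted p alone 3 passed, all higher, against 1.82% of all genes in that direction. The called genes were 1.07% of all genes higher and 0.0569% lower.

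The median log2 fold change of the 6 members was 0.55, against 0.13 over all genes. With median centring, which moved the median of all genes to -0.07, no member and no gene passed the adjusted p, and with quantile normalization 10 genes were called higher and 3 lower, against 169 and 9. Without ePP-P9 replicate 1, ePP-P21 replicate 1 or ePP-P21 replicate 2, none of LAMA1, LAMB2 and LAMA5 passed (limma, adjusted p from 0.0557 to 0.149), and without ePP-P9 replicate 2 LAMA5 did not (0.0566) while LAMB1 did (0.0239). Over all alternatives the adjusted p reached 0.492 for LAMA1 and LAMB2 and 0.833 for LAMA5. LAMB3 was at or under 0.0657 TPM in all 4 libraries and was not tested.

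**Figure D5:**
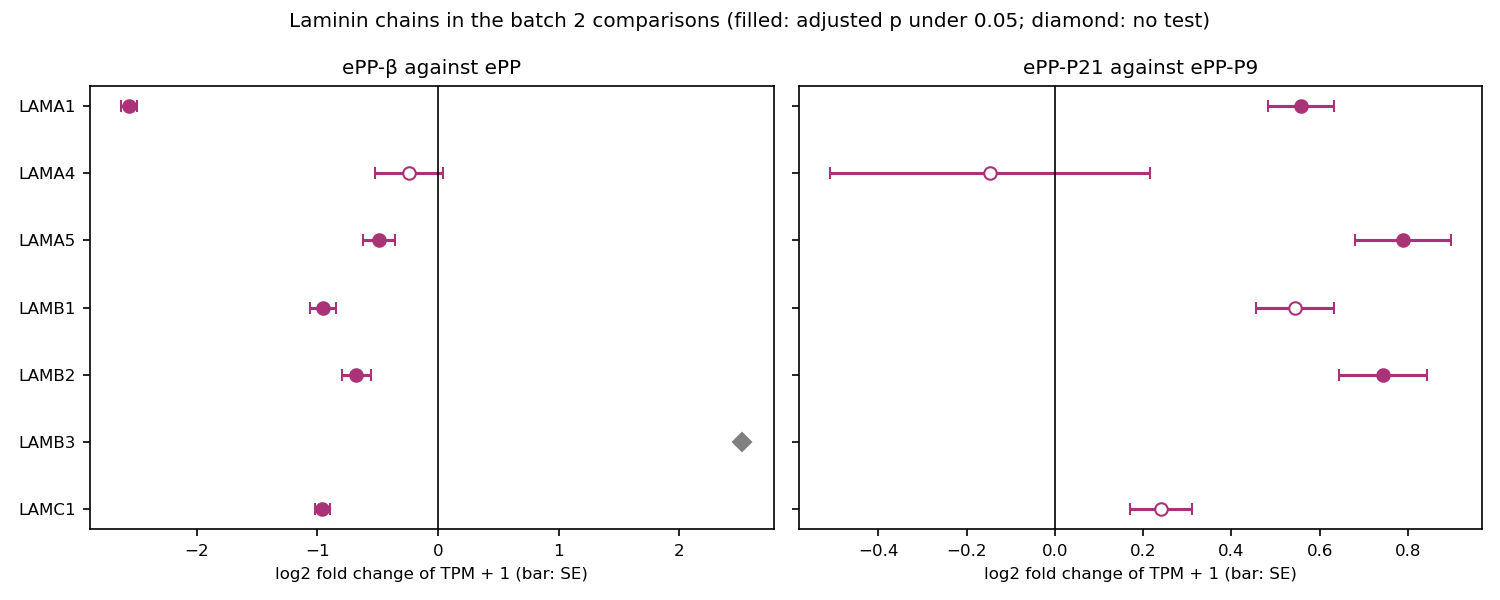
limma log2 fold changes of TPM + 1 for the tested laminin chains, with bars of 1 SE, in ePP-β against ePP (left) and ePP-P21 against ePP-P9 (right), on different horizontal scales. Filled circles have an adjusted p under 0.05, and the diamond marks LAMB3, which has no test. LAMB3 lies to the right and LAMA1 to the left in ePP-β, and the passages differ by less than 1.

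Set by the medium, the 6 libraries from cells kept with I-BET151, in batches 2 and 3, can be laid beside the 8 others. This grouping was chosen after the values were seen, includes the comparison on which the members were chosen, and has no test. LAMA1 was between 93.7 and 201 TPM with I-BET151 and between 9.25 and 71.9 without. LAMB1 was between 194 and 340.4 TPM with and between 44.8 and 165 without, and LAMC1 between 185 and 251 with and between 16.7 and 121 without. These 3 of 9 members had no overlap and were higher, against 1.00% of 20582 genes, and none was lower without overlap, against 1.81%. LAMB3 was at or under 0.787 TPM in the 6 libraries and at or above 3.84 in the others except DE, at 0.0723. Cell stage, feeder cells and batch differ between these libraries too and cannot be told apart from the medium. The ePP-β libraries are counted among the 8 without, though their cells were made from ePPs kept with I-BET151.

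Laminins are held by receptors on the cell surface. Of 11 laminin receptor genes 10 were tested in ePP-β against ePP, with 1 called higher and 3 lower, against 17.9% and 9.86% of all genes, and a median log2 fold change of -0.21, against -0.03 over all genes. ITGA6, the integrin α6 chain that binds laminins with β1 or β4, was between 72.0 and 100.03 TPM in ePP and at 17.4 in both ePP-β libraries, a log2 fold change of -2.25 (limma, adjusted p = 9.85e-06). ITGA3, the α3 integrin chain that binds laminin-332 and laminin-511, was between 3.00 and 4.14 TPM in ePP and at 7.53 and 9.70 in ePP-β, and rose by 1.06 (limma, adjusted p = 0.00384). Its log2 fold change was under 1 with median centring (0.93), with quantile normalization (0.80), without ePP-P21 replicate 2 (0.97) and without ePP-β replicate 2 (0.90), which ends the call. SDC1, the proteoglycan syndecan-1, fell by 1.42 (adjusted p = 0.000174), and DAG1, which encodes dystroglycan, fell by 1.36 (limma, adjusted p = 9.46e-05).

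Of 18 basement membrane partners 15 were tested in the same comparison, with 11 called lower and 1 higher, against 9.86% and 17.9% of all genes, and a median log2 fold change of -1.43. NPNT (nephronectin, a ligand of integrin α8β1) fell by 2.39 (limma, adjusted p = 1.74e-05), NID1 (nidogen-1, which links laminin to type IV collagen) by 2.17 (adjusted p = 2.58e-05) and HSPG2 (perlecan) by 2.06 (adjusted p = 4.09e-05). NID1 was between 31.3 and 35.8 TPM in the ePP libraries and at 6.80 and 6.54 in ePP-β. The called gene that rose was TINAGL1, a secreted matrix protein, with a log2 fold change of 1.93 (limma, adjusted p = 0.000149).

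Of 6 hemidesmosome genes 4 were tested, with DST (dystonin, a linker to keratin) higher by 1.63 (limma, adjusted p = 0.0113), at 17.6 and 47.8 TPM in ePP-β against 6.05 to 12.2 in ePP, and ITGA6 lower. The log2 fold change of DST was 0.93 without ePP-β replicate 2, which ends the call, and 2.32 without replicate 1, and with no filter its adjusted p was 0.0683. ITGB4 and COL17A1, defining parts of the hemidesmosome, were at or under 0.804 and 0.747 TPM in the 6 libraries. Of 8 genes of chain secretion and processing 7 were tested and 0 were called, against 17.9% higher and 9.86% lower of all genes. By limma's adjusted p alone 3 were higher and 3 lower, against 29.2% and 28.2% of all genes. An unadjusted p under 0.05 was found for 6, against 11251 of the 18076 genes tested.

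With I-BET151 against DMSO, 38 of the 43 genes of these lists (receptors, partners, hemidesmosome, secretion and processing and the other chains) were tested by limma and none was called. Of the 38, 8 had an unadjusted p under 0.05, against 2536 of all 16687 genes. With all 10 replicated libraries in the fit 7 were called, 1 higher and 6 lower, against 518 higher and 1155 lower of 19179 genes. COL17A1 and ITGB4, which get no test, were among the 7. The median log2 fold change of the 38 genes was -0.27, against 0.16 over all genes. COL17A1, the type XVII collagen of hemidesmosomes, was at 8.98 and 6.94 TPM in DMSO and 0.0733 and 0.0683 in I-BET151, a log2 difference of -3.05, and it passed the filter only through DMSO. ITGB4, which pairs with ITGA6 in hemidesmosomes, was at 14.9 and 4.18 TPM in DMSO and 1.41 and 0.585 in I-BET151, a log2 difference of -2.21. Both genes were named after their values were seen and get no test, and in both the I-BET151 libraries lay below the DMSO libraries. The rest of the 6 hemidesmosome genes did not follow them. ITGA6 was at 33.5 and 47.5 TPM in DMSO and 49.5 and 60.1 in I-BET151, a log2 difference of 0.44. The log2 difference was 0.04 for DST, 0.04 for CD151 and -0.45 for PLEC. Between passages, 35 of the 43 genes were tested and none was called. Of the 35, 17 had an unadjusted p under 0.05, against 3641 of all 15822 genes. MMP14, a membrane metalloproteinase that can cut laminins, NPNT, SPARC and COL4A6 passed the adjusted p alone, all higher in ePP-P21 (limma, adjusted p from 0.0359 to 0.0499), that is 4 genes, where 1.82% of all genes passed in that direction.

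The genes whose TPM followed LAMB3 most closely were sought among 11054 protein-coding genes with at least 10 TPM in 2 libraries, by Pearson's r of log2(TPM + 1) over the 14 libraries. They were ELF4, a transcription factor of the ETS family (r = 0.965), DGAT2, an enzyme of triglyceride synthesis (0.957), KDELR3, a receptor that returns proteins to the endoplasmic reticulum (0.954), SDCBP2, a syndecan-binding protein (0.953), and CHST13, a chondroitin sulfotransferase (0.949). ELF4 was at 12.8 and 11.4 TPM in DMSO, 2.41 and 2.29 in I-BET151, 5.50 and 5.24 in ePP-β and between 0.584 and 0.867 in ePP. The likeness is a description over libraries that share stages and batches. Between LAMA3 and LAMB3 r was 0.770 and Spearman's rho 0.442, and between LAMB1 and LAMC1 r was 0.924 and rho 0.930.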

How the data were processed

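RNA was sequenced from 14 libraries of MEL1 cells. The authors aligned reads with HISAT2 2.1.0 to hg38, the version and build given in the submitters' processing notes, and deposited TPM per Ensembl gene from StringTie. The annotation and the use of strand were not given in the sources used here. Of 60624 identifiers 60370 matched GENCODE release 44, which gave symbols and positions. Depth is unknown for TPM, so precision rests on 2 libraries per group, and the labels do not say that these were separate cultures, so p-values measure the spread between them, which may be technical.

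Genes with at least 1 TPM in 2 libraries of a fit were compared as log2(TPM + 1), which understates changes of low genes, with limma 3.58.1 in R 4.3.3 (two-sided, intensity trend, Benjamini-Hochberg adjustment over all genes). Each fit held only the groups compared, within 1 batch. ePP was the mean of both passages. Calls needed an adjusted p under 0.05 and a log2 fold change beyond 1, the study's thresholds. The study applied them with DESeq2 and not with limma on TPM, so its numbers of calls need not match those given here. The code was tested on simulated data. The alternatives were other pseudocounts, filters and scalings, a block for the replicate number, a fit of 10 libraries, leaving out each library, and the adjusted p alone. The members and gene lists were chosen with earlier results of these data known. Genes named beyond the laminin chains were up to 4 called genes of each list with the largest fold change, listed markers, the 5 genes most like LAMB3, and those said to be named after their values were seen. Some items of the lists are not reported here and were left out of the list counts, but not of the fits.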

Additional observations from a re-analysis of the deposited data

How the results depend on the processing

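In ePP-β against ePP, the 2 members past the call (LAMA1, and LAMB3 only through ePP-β) became 1 with a filter of 5 TPM (LAMB3 was not tested), 4 with median centring and 4 without ribosomal protein genes (LAMB1 and LAMC1 were added), and 6 with the adjusted p alone. Leaving out 1 library gave 2 to 2 calls, but without either ePP-β library LAMB3 could not be tested and LAMC1 or LAMB1 took its place. In ePP-P21 against ePP-P9 the 0 calls became 3 with the adjusted p alone, and leaving out 1 library gave 0 to 0. The log2 difference of LAMB3 with I-BET151 was -5.23 and -5.41 with pseudocounts of 0.1 and 0.01, -4.37 without ribosomal protein genes, and -4.25 to -4.04 with 1 library left out.

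Of the list genes, the 0 calls with I-BET151 became 1 each with median centring, quantile normalization and without ribosomal protein genes. That 1 was COL17A1 each time, which passed the filter only through DMSO, so nothing is read from it. With all 10 replicated libraries 7 were called, COL17A1 and ITGB4 among them, against 518 higher and 1155 lower of 19179 genes. In ePP-β the 17 list calls became 30 with the adjusted p alone and 15 to 18 with 1 library left out. In the passages the 0 became 4 with the adjusted p alone and 0 to 0 with 1 library left out. Of the 5 genes most like LAMB3, 3 stayed with a pseudocount of 0.1, 1 with Spearman's rho and 0 without batch 3. The highest trimer of each group, or 1 of those tied for it, was shared in 9 of 9 groups with the geometric mean. It was also shared in 9 of 9 without ribosomal protein genes, but that setting rescales each library by 1 factor. The order of trimers within a library could thus not change, and nothing is read from that count. The passage log2 fold change of LAMA4 turned to 0.09 without ePP-P9 replicate 1 and 0.27 without ePP-P21 replicate 2, and ran from -0.57 to 0.27 with 1 library left out. The causes were not tested.

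With the replicate number as a block, 9 list genes were called with I-BET151 (2 higher, 7 lower), COL17A1 and ITGB4 among them. Over all genes 828 were higher and 1466 lower, against 1 and 34. The replicate differences of DMSO and I-BET151 correlated at 0.675 across genes, those of ePP-P9 and ePP-P21 at -0.009. Over all genes, the 1 higher and 34 lower calls with I-BET151 became 1 and 119 with median centring, 3 and 135 with quantile normalization, 518 and 1155 with all 10 libraries, and from 7 and 100 (without DMSO replicate 1) to 283 and 751 (without I-BET151 replicate 2) with 1 library left out. In the labels, samples with the same replicate number share only that number. What lies behind the correlation of 0.675 was not tested. The block left the member calls at 2 in ePP-β, LAMA1 and LAMB3. LAMB3 passed the filter only through ePP-β, so nothing is read from its call. In the passages the member calls stayed at 0, and 0 members passed the adjusted p against 3 and 0 list genes against 4. With I-BET151 the block called 3 of the 6 epithelial markers and 4 of the 12 mesenchymal markers lower, against 0 and 1. That 1 was LUM, which passed the filter only through DMSO, so nothing is read from it.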
